A study of Homo sapiens with 21 samples.

Results

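The circular RNAs hsa_circ_11052 and hsa_circ_11057 are 2 of the 124082 circular RNAs (circRNAs) counted in 21 libraries of 3 human lung cell lines. hsa_circ_11052 was selected on its read total, the highest in the table with 94157 over all libraries, and hsa_circ_11057, with 1668 reads and place 139, was chosen by its number and level, since it is numbered 5 identifiers later and was also high in NCI-H1975 cells. The next row below the choice of hsa_circ_11052 had 22845 reads. These totals and NCI-H1975 levels are therefore a description. The identifiers are numbers of the table itself and come with no gene name, host gene, coordinate or sequence, so neither circRNA was placed in the genome and no sequence is shown.

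A circRNA is a closed RNA loop that forms when the spliceosome joins the end of an exon back to the start of the same or an upstream exon. A gene can yield several circRNAs that use different pairs of splice sites, in amounts that need not follow each other. Having no free ends, circRNAs resist exonucleases and are often more stable than the linear transcripts of their genes. Purification of circular RNA commonly relies on that resistance.

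Each of the 7 groups had 3 libraries, and all cells were grown in RPMI with serum. NL20, an immortalized bronchial epithelial line that is non-tumorigenic, was the normal control. PC-9 and NCI-H1975 are lung cancer lines labelled as EGFR mutant. PC-9 libraries came from cells with no resistance code and from gefitinib-resistant cells, treated with 1 µM of gefitinib, an inhibitor of the EGFR kinase. NCI-H1975 libraries came from cells with neither a resistance nor a plasmid code, from osimertinib-resistant cells, treated with 1 µM of osimertinib, a later EGFR inhibitor, and from cells transfected with pCMV6 or FASN. Fatty acid synthase, FASN, makes palmitate. The transfected cells of both kinds received 50 µg/ml of G418, which the other NCI-H1975 cells are not said to have received. Passages were given as 20 to 31, and as 20 to 30 for 1 NL20 library. The labels do not say whether the resistant or transfected lines are clones or pools, nor whether replicate libraries are from separate cultures. The spread between libraries on which p-values rest may therefore be technical.

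Library totals ran from 95808 to 203079 reads and the number of distinct circRNAs from 15244 to 30198. The lowest number was that of osimertinib-resistant replicate 2, the library in which hsa_circ_11052 was highest, and the tests that include it were repeated without it. No pair of libraries had identical counts. pCMV6 replicate 1 and osimertinib-resistant replicate 2 had the same total, 110456 reads, but their counts differed more than those of any replicate pair (chi-square per degree of freedom 8.65 against 2.07 to 4.80 within groups). The highest values within groups, 4.37 and 4.80, both involved osimertinib-resistant replicate 2, and all other replicate pairs reached at most 2.68. Without gene names the cell lines could not be checked against markers.

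hsa_circ_11052 was the most abundant circRNA in all 12 NCI-H1975 libraries and in none of the 9 others. In NCI-H1975 cells without a code it had between 5.38 and 5.86 times the reads of the next circRNA of the same library. This lead was 6.29 to 7.15 times in FASN cells, 5.11 to 8.67 times in osimertinib-resistant cells and only 2.35 to 2.59 times in pCMV6 cells. In NL20 it ranked between 4 and 7, in PC-9 between 27 and 47 and in gefitinib-resistant PC-9 between 27 and 53. It had reads in all 21 libraries, as did 2481 circRNAs of the table, and 96.9% of its reads came from NCI-H1975, where 53.5% of all reads of the table lay.

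Levels are given as CPM, reads per 1 M (mega) reads in the circRNAs tested after TMM scaling between libraries. hsa_circ_11052 stood at 78662, 82351 and 80017 CPM in the NCI-H1975 libraries (replicates 1 to 3), a mean of 80343 ± 1866 (SD, n = 3). The FASN libraries, at 77165, 80288 and 81498 CPM, lay over the same range. The pCMV6 libraries, at 37758, 37058 and 37194 CPM, lay close together and below every other NCI-H1975 library. The osimertinib-resistant libraries had 96239.5, 144167 and 104519 CPM, all above the other NCI-H1975 groups, with replicate 2 well above the other 2 libraries. As shares of all reads of a library, the group means were 5.99% ± 0.22 in NCI-H1975, 6.05% ± 0.14 in FASN, 2.98% ± 0.042 in pCMV6 and 8.67% ± 2.36 in osimertinib-resistant cells (SD, n = 3).

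Outside NCI-H1975 the same circRNA was scarcer but well counted. It had 3980, 4754 and 4499 CPM in NL20, from 528 to 681 reads a library. PC-9 had 1651, 2231 and 1999 CPM and gefitinib-resistant PC-9 1545, 2334 and 1869 CPM, from 132 to 306 reads a library. Every NL20 library was above every PC-9 library, and the PC-9 groups overlapped. The order of the group means was osimertinib-resistant, NCI-H1975, FASN, pCMV6, NL20, PC-9 and gefitinib-resistant PC-9, in which NCI-H1975 and FASN, and the PC-9 groups, were the neighbours whose libraries overlapped.

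**Figure D1:**
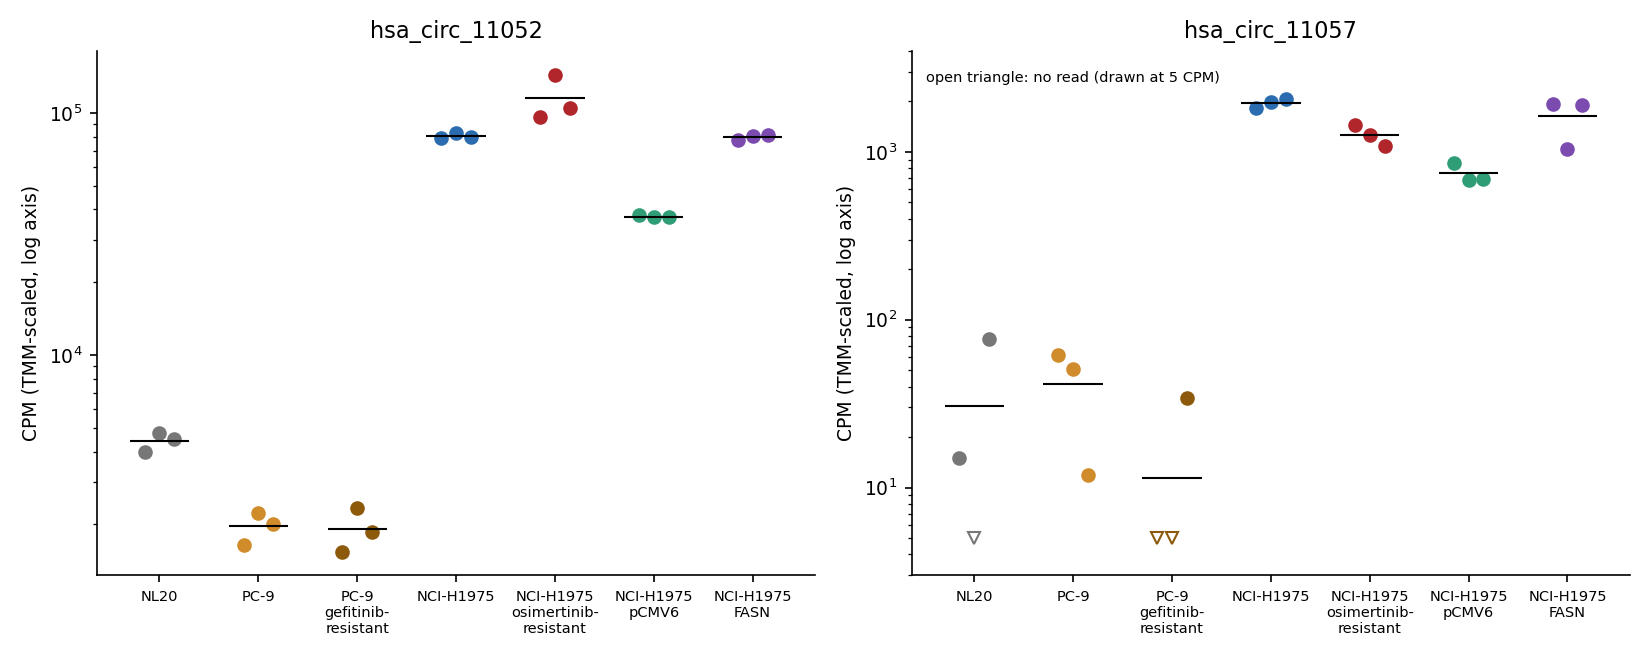
CPM on a log axis of hsa_circ_11052 (left) and hsa_circ_11057 (right) in each library (points), by group, with the group mean as a line; open triangles are libraries with no read. The 3 pCMV6 libraries of hsa_circ_11052 lie between 37058 and 37758 CPM, below the other NCI-H1975 libraries, and hsa_circ_11057 is near or at 0 outside NCI-H1975.

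hsa_circ_11057 was also a circRNA of NCI-H1975, at a level well below that of hsa_circ_11052. It had 190, 221 and 255 reads in the NCI-H1975 libraries, or 1825, 1970 and 2057 CPM (mean 1950 ± 117, SD, n = 3). The FASN libraries had 1936, 1035 and 1899 CPM, so that replicate 2 stood well below the other 2. The osimertinib-resistant libraries had 1442, 1263 and 1077 CPM, all below NCI-H1975 and above pCMV6. The pCMV6 libraries had 859.7, 683 and 689 CPM, the lowest of the line. In its best library it ranked 22 and in its worst NCI-H1975 library 175.

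In the other lines hsa_circ_11057 was at the edge of detection. NL20 libraries had 2, 0 and 9 reads, PC-9 libraries 6, 7 and 1, and gefitinib-resistant PC-9 libraries 0, 0 and 3. A count of 0 allows a share of up to 0.00148% in NL20 replicate 2, 0.00276% in gefitinib-resistant replicate 1 and 0.0025% in replicate 2, where the floor is 3 counts and covers counting error only. The NL20 and both PC-9 groups overlapped. Of its reads, 98.3% came from NCI-H1975. It passed the filter on low counts through its NCI-H1975 groups, while hsa_circ_11052 would have done so in any group.

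Since the pair was chosen partly for its NCI-H1975 level, the differences between lines carry no test. In the edgeR fit hsa_circ_11052 was 18.2-fold higher in NCI-H1975 than in NL20 and 40.9-fold higher than in PC-9. For hsa_circ_11057 the fitted figures were 66.0-fold over NL20, from 666 reads against 11, and 43.5-fold over PC-9, from 666 against 14. By reads alone these ratios were 69.97 (95% exact interval 38.9 to 140.8) and 44.5 (26.3 to 81.8), intervals that cover counting error only. PC-9 had 2.24-fold less hsa_circ_11052 than NL20, whereas hsa_circ_11057 was too rare in both for an order.

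The ratio of the rows within a library needs no scaling between libraries. It is a ratio of read counts and not of molecules, since the lengths of the circRNAs and the efficiency of reading each are unknown, and it is compared only between groups. In NCI-H1975 there were 2.32, 2.39 and 2.57 reads of hsa_circ_11057 per 100 reads of hsa_circ_11052. The mean was 2.43 ± 0.13 (SD, n = 3), and the spread on the log2 scale, 0.076, was no larger than the 0.099 that counting alone would give. The pair was thus in nearly constant proportion in these 3 libraries.

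In osimertinib-resistant cells the proportion was lower in every library. There were 1.50 (95% exact interval 1.26 to 1.77), 0.876 (0.719 to 1.06) and 1.03 (0.848 to 1.24) reads of hsa_circ_11057 per 100 of hsa_circ_11052, all below the 3 values in NCI-H1975. The intervals of single libraries cover counting error only, not the spread between libraries. The reads of hsa_circ_11052 per read of hsa_circ_11057 were 41.1 in NCI-H1975 and 90.3 in osimertinib-resistant cells, summed over the libraries. The difference of the mean log2 ratio was 1.13, a 2.19-fold change in the ratio. A two-sided exact permutation test gave p = 0.1, its lowest possible value with 3 libraries against 3, and 0.2 after adjustment over the 6 tests of the ratio. Without osimertinib-resistant replicate 2 the difference was 0.96, so that this library did not carry it alone.

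In pCMV6 cells, where both circRNAs were lower, the ratio of hsa_circ_11052 to hsa_circ_11057 was 1.22 times that of NCI-H1975. There were 2.28, 1.84 and 1.85 reads of hsa_circ_11057 per 100 of hsa_circ_11052, a log2 difference of 0.28 (exact permutation p = 0.1, adjusted 0.2). All 3 values were below those of NCI-H1975, but the intervals of single libraries overlapped, for example 1.79 to 2.86 for pCMV6 replicate 1 and 2.00 to 2.68 for NCI-H1975 replicate 1.

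FASN cells were split. Replicates 1 and 3 had 2.51 and 2.33 reads of hsa_circ_11057 per 100 of hsa_circ_11052, as in NCI-H1975, and replicate 2 had 1.29 (95% exact interval 1.06 to 1.55). The spread of the log2 ratio, 0.53, was well above the 0.12 of counting alone. The low ratio came from hsa_circ_11057, since hsa_circ_11052 was at 80288 CPM there. That library also had the largest total of the FASN libraries, 147193 reads against 106020 and 106809, and the part of this in the ratio was not tested. The log2 difference from pCMV6 was 0.02 (exact permutation p = 1) and that from NCI-H1975 0.30 (p = 0.5, adjusted 0.6). Without FASN replicate 2 the differences were -0.28 and 0.003.

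Across the 4 NCI-H1975 groups, group accounted for 69.5% of the variance of the log2 ratio (permutation test with 100000 resamples, p = 0.0295, 0.177 after adjustment over the 6 tests). The ratio therefore did not pass the adjusted threshold. Without osimertinib-resistant replicate 2 the unadjusted p was 0.0780 (adjusted 0.2), and without FASN replicate 2 it was 0.00863 (adjusted 0.0518). In the other lines it could hardly be measured: summed over libraries there were 2.21 reads of hsa_circ_11057 per 100 of hsa_circ_11052 in PC-9 (95% exact interval 1.20 to 3.73), 0.588 in gefitinib-resistant PC-9 (0.121 to 1.73) and 0.633 in NL20 (0.316 to 1.14). The log2 difference between the PC-9 groups was 1.85 (exact permutation p = 0.2, adjusted 0.3), and it rested on 3 reads against 14. As 2 of the 3 gefitinib-resistant libraries had no read of hsa_circ_11057, the 0.5 added to each count set much of this value, which was 3.25 with 0.1 added and 1.33 with 1 added. It ran from 1.21, without gefitinib-resistant replicate 2, to 2.80, without replicate 3 of that group.

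**Figure D2:**
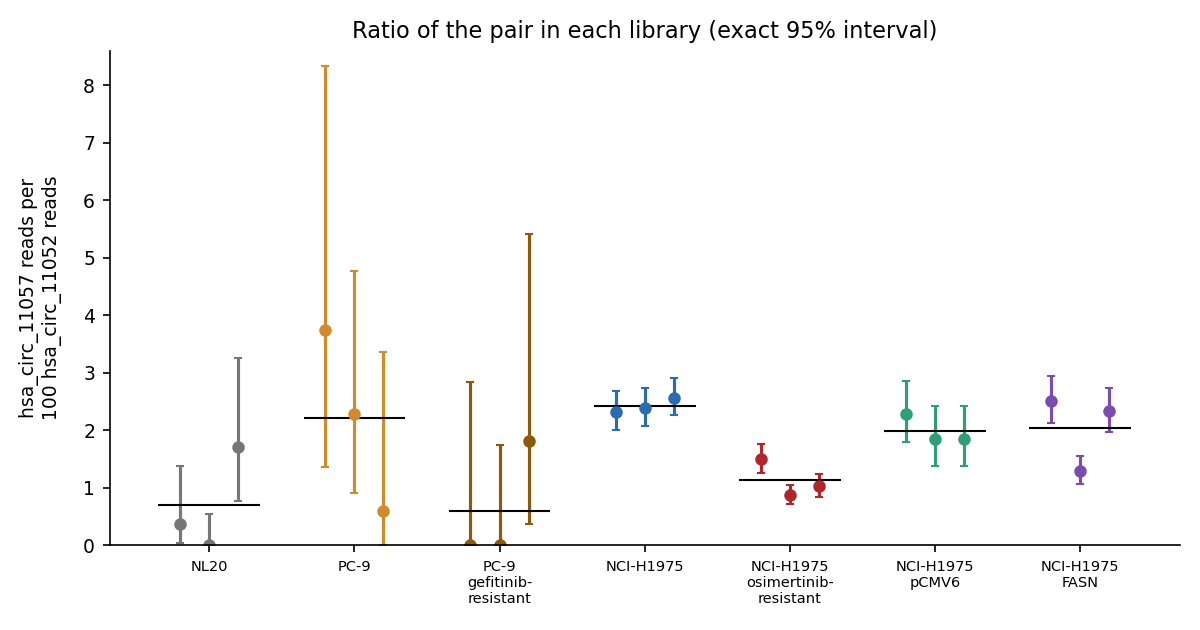
Reads of hsa_circ_11057 per 100 reads of hsa_circ_11052 in each library (points) with exact 95% intervals (bars), by group, and the mean of the group (line). The osimertinib-resistant libraries, at 0.876 to 1.50, lie below the NCI-H1975 libraries, at 2.32 to 2.57, and FASN replicate 2, at 1.29, lies apart from the other FASN libraries.

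The changes within a line were tested with edgeR's quasi-likelihood test in a fit of all 9175 circRNAs tested, with p-values adjusted over all of them. The SE comes from that test and rests on a spread estimated jointly over the circRNAs tested, as a trend over abundance. No other circRNA was as abundant as hsa_circ_11052 (94157 reads, against 22845 for the next), so its spread comes from the far end of that trend. The joint estimate weighed as 39605.5 degrees of freedom for hsa_circ_11052 and 16107 for hsa_circ_11057, against 14 from its own libraries. The SE and p therefore hardly reflect each circRNA's own spread. For hsa_circ_11052 the SE was 0.09 in both pCMV6 and osimertinib-resistant cells against NCI-H1975, while the SD of its CPM was 0.995% and 22.3% of the mean. In a bulk library, fewer cells that carry a circRNA and less of it per cell cannot be told apart.

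Both circRNAs were lower in pCMV6 cells than in NCI-H1975 cells. hsa_circ_11057 fell 2.61-fold (log2 -1.39 ± 0.23 SE, edgeR adjusted p = 3.69e-06), with every pCMV6 library below every NCI-H1975 library. hsa_circ_11052 fell 2.15-fold (log2 -1.11 ± 0.09 SE, edgeR adjusted p = 4.63e-30). Over all circRNAs tested, 0.24% were lower at this threshold, 0.12% were higher and the median log2 change was -0.01. By p-value, hsa_circ_11052 ranked 1 and hsa_circ_11057 ranked 5 among the 9175. This is no ranking by size of change. At the same change more reads give a smaller p, and hsa_circ_11052 was chosen for its reads, so its rank is no separate support. The median absolute log2 change of all circRNAs tested was 0.60. Leaving out any of the 6 libraries kept both calls.

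Both were higher in FASN than in pCMV6 cells. hsa_circ_11057 rose 2.16-fold (log2 1.11 ± 0.23 SE, edgeR adjusted p = 0.00149) and hsa_circ_11052 2.13-fold (log2 1.09 ± 0.09 SE, edgeR adjusted p = 2.46e-29). The log2 changes were nearly equal with all libraries, but 1.12 for hsa_circ_11052 and 1.39 for hsa_circ_11057 without FASN replicate 2. At this threshold 0.196% of the circRNAs tested were higher. All FASN libraries were above all pCMV6 libraries for both. The call of hsa_circ_11057 was lost without FASN replicate 3 (log2 1.03, edgeR adjusted p = 0.0569) and without the filter on low counts (1.20, adjusted p = 0.249). This comparison shares the pCMV6 libraries with the preceding one, so the opposite signs are not independent.

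Between FASN cells and NCI-H1975 cells without a plasmid code neither circRNA was called. The log2 difference was -0.01 (95% interval -0.19 to 0.16) for hsa_circ_11052 and -0.27 (-0.70 to 0.16) for hsa_circ_11057, each with an edgeR adjusted p of 1. No circRNA was called in this comparison by edgeR (0%) or by DESeq2. An unadjusted edgeR p under 0.05 was reached by 336 of the 9175 tested, a smaller share than the 0.05 that no change at all would give. The sign for hsa_circ_11052 turned under several scalings and filters.

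In osimertinib-resistant cells the estimates of the pair went opposite ways. hsa_circ_11052 rose 1.43-fold (log2 0.52 ± 0.09 SE, edgeR adjusted p = 3.06e-06), where 1.36% of the circRNAs tested were higher. hsa_circ_11057 had a log2 change of -0.63 ± 0.22 SE, a 1.55-fold lower level in 3 of 3 libraries, which did not pass (edgeR adjusted p = 0.109, unadjusted 0.00435). Its libraries, at 1077 to 1442 CPM, did not overlap those of NCI-H1975, at 1825 to 2057 CPM. Circular RNAs called lower made up 1.16% of those tested.

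The call of hsa_circ_11052 as higher was lost without osimertinib-resistant replicate 2. When that library was left out, the log2 change was 0.31 (edgeR adjusted p = 0.0687), while hsa_circ_11057 had -0.64 (adjusted p = 0.235). That library had 144167 CPM of hsa_circ_11052 and 15244 distinct circRNAs, against 21841 and 23973 in the other libraries of its group, and the part of the lower number in the result was not tested. In a fit of these 6 libraries alone the log2 change was 0.54 (adjusted p = 0.119).

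In gefitinib-resistant PC-9 cells neither circRNA was called, beside 1.35% of the circRNAs tested in either direction. The log2 change of hsa_circ_11052 was -0.03 (95% interval -0.23 to 0.16, edgeR adjusted p = 0.967). hsa_circ_11057 had 3 reads, all in replicate 3, against 14, a ratio of 0.257 (95% exact interval 0.0474 to 0.922). This interval sums the libraries and covers counting error only, not the spread between them. Since hsa_circ_11057 passed the filter through its NCI-H1975 groups, its test in PC-9 (edgeR adjusted p = 0.289) cannot decide on a change. The difference between the resistance changes of the lines was tested directly. For hsa_circ_11052 it was 0.55 ± 0.13 SE on the log2 scale (edgeR adjusted p = 0.0053, 1.77% of circRNAs called), and 0.35 (adjusted p = 0.256) without osimertinib-resistant replicate 2. Its call was also lost without PC-9 replicate 2 (0.38, adjusted p = 0.236) and without gefitinib-resistant replicate 1 (0.42, adjusted p = 0.124). Each fit without a library also redid the filter and the scaling, so these losses cannot be ascribed to the library alone. For hsa_circ_11057 the difference was 1.21 ± 0.71 SE (edgeR adjusted p = 0.538), which rests on the same few PC-9 reads and decides nothing.

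**Figure D3:**
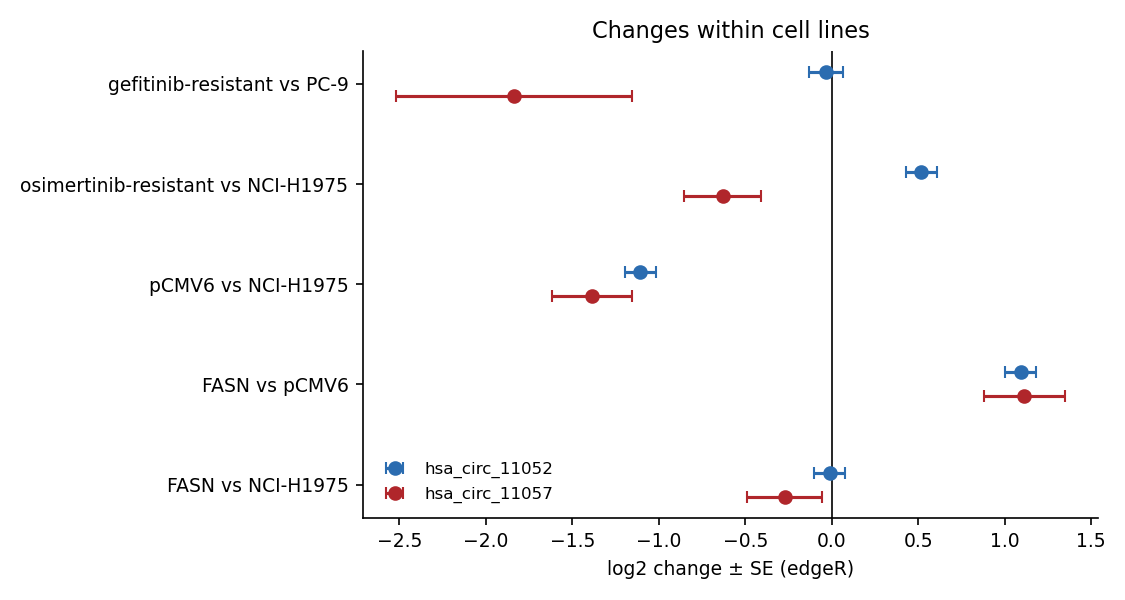
Log2 change with its SE (bars) of hsa_circ_11052 and hsa_circ_11057 in the 5 comparisons within a line, from the edgeR fit of all 21 libraries. The circRNAs lie close together in the comparisons with pCMV6 (-1.11 and -1.39, and 1.09 and 1.11) and on opposite sides of 0 in osimertinib-resistant cells (0.52 and -0.63).

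Whether the circRNAs move together was also examined inside the groups, by the deviation of each library's log2 CPM from its group mean, which the choice of the pair did not use. The deviations had the same sign in 12 of 21 libraries. Their Pearson correlation was -0.11 and their Spearman correlation -0.12 (permutation within groups, 100000 resamples, p = 0.723 and 0.690). In the 12 NCI-H1975 libraries alone, where hsa_circ_11057 was well counted, these were -0.06 and 0.07 (permutation p = 0.876 and 0.827). In the groups without a code, with pCMV6 and with FASN, however, hsa_circ_11052 deviated only by -0.045 to 0.036. Counting alone gave the log2 ratio a spread of 0.099 to 0.19 there, so these libraries could hardly show joint movement. Without the 2 libraries farthest from the median of hsa_circ_11052, PC-9 replicate 1 and gefitinib-resistant replicate 1, Pearson's r was -0.17 (permutation p = 0.568). No joint movement within groups was detectable, and in NL20 and PC-9 the deviations of hsa_circ_11057 rest on 0 to 9 reads.

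**Figure D4:**
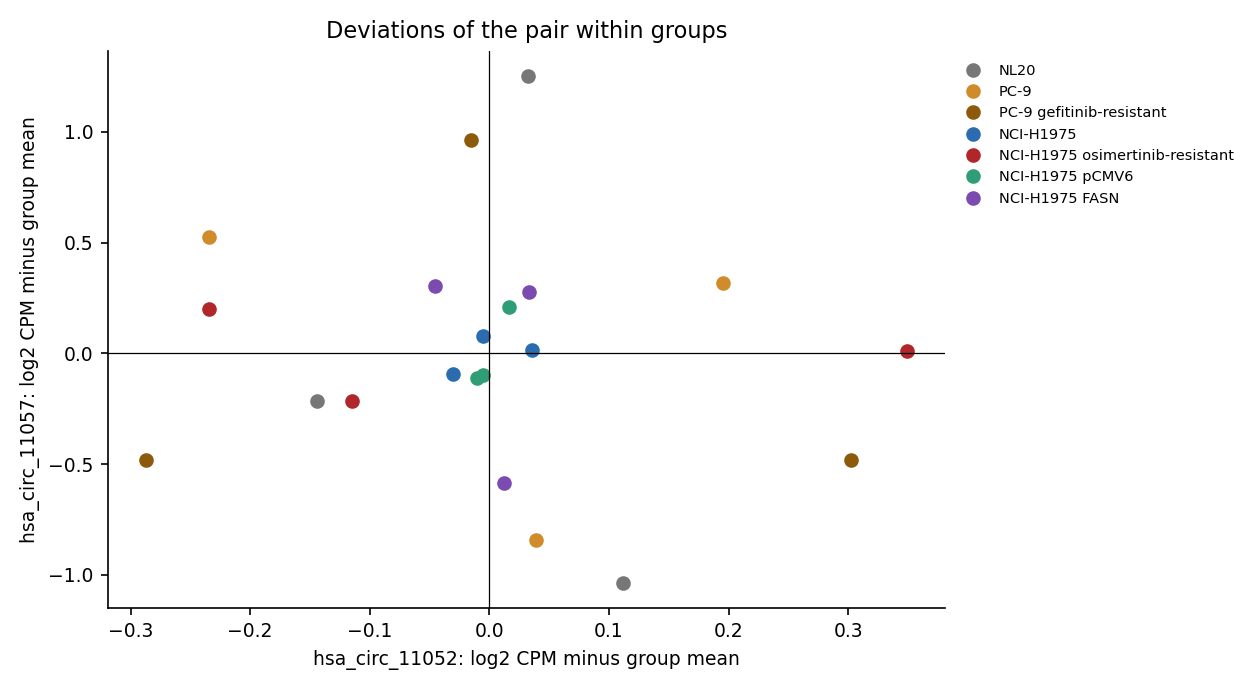
Deviation from the group mean in log2 CPM of hsa_circ_11052 (x axis) and hsa_circ_11057 (y axis), 1 point a library, coloured by group. The NL20 and PC-9 libraries spread widely on the y axis, from -1.03 to 1.25, and osimertinib-resistant replicate 2 (0.35) and FASN replicate 2 (-0.58) lie out on 1 axis each.

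Between the pair and just after it, in the order of the table, most reads came from NCI-H1975. Identifiers were given by the first library, in the order of columns, that held a read, and within such a class the identifier grew by 1 from row to row in 89.4% of steps, so row order and numbering follow a common order whose basis the file does not state. hsa_circ_11057 comes 14 rows after hsa_circ_11052. The 13 rows between them had 555 reads in all, 96.6% of them in NCI-H1975. Of these rows, 4 had at least 20 reads, and 3 of the 4 had over 90% of them in NCI-H1975, which held for 2.94% of the 17660 rows of the table with at least 20 reads. Among the 25 rows after hsa_circ_11057, 3 of the 4 with 20 reads or more did so too, and among the 25 rows before hsa_circ_11052 the only such row did not. Counted by identifier the stretch was short. The 10 identifiers after hsa_circ_11057 had 54.1% of their reads in NCI-H1975 and the 10 before hsa_circ_11052 had 46.6%, against 53.5% in the table. Over 90% was reached by 3 of 8 and 0 of 5 of their rows with at least 20 reads. The 54.1% mixes unlike rows, since hsa_circ_11058 to hsa_circ_11061 each had 97.8% to 100% and hsa_circ_11062 had 37.3%.

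The rows just after hsa_circ_11057 include hsa_circ_11058, with 624 reads, 97.8% of them in NCI-H1975. It stood at 587 ± 24.9 CPM in NCI-H1975, 758 ± 67.9 in FASN, 404 ± 138 in osimertinib-resistant and 361 ± 142 in pCMV6 cells (SD, n = 3). In osimertinib-resistant cells its log2 change was -0.55 ± 0.33 SE, and that of the row after it, hsa_circ_11059, -0.89 ± 0.44 SE. The rows 2 and 5 after hsa_circ_11052, hsa_circ_11054 and hsa_circ_11055, had 0.94 ± 0.50 and 0.28 ± 0.58 SE. The other 2 tested rows among the 25 after hsa_circ_11057 were hsa_circ_11061, with a log2 change of 0.14 ± 0.76 SE in osimertinib-resistant cells, and hsa_circ_11062. In pCMV6 cells the log2 changes of the first 4 rows and of hsa_circ_11061 lay between -1.60 and -0.48. hsa_circ_11062 went the other way: its 59 reads lay mostly outside NCI-H1975 (37.3% inside), with 1 read in NCI-H1975 cells without a code, 10 in osimertinib-resistant, 8 in pCMV6 and 3 in FASN cells. These rows were looked at after their values were seen and are a description without a test.

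Among the tested rows, 7.39% of the table, those that follow each other tended to be alike. The log2 difference between NCI-H1975 and PC-9 had a Pearson correlation of 0.36 across 9174 pairs of consecutive tested rows. It was 0.14 for rows 5 apart and -0.02 for rows 1000 apart, counting tested rows alone, so these distances are longer in rows of the table. These are correlations across circRNAs, which share the same libraries and are not independent replicates.

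**Figure D5:**
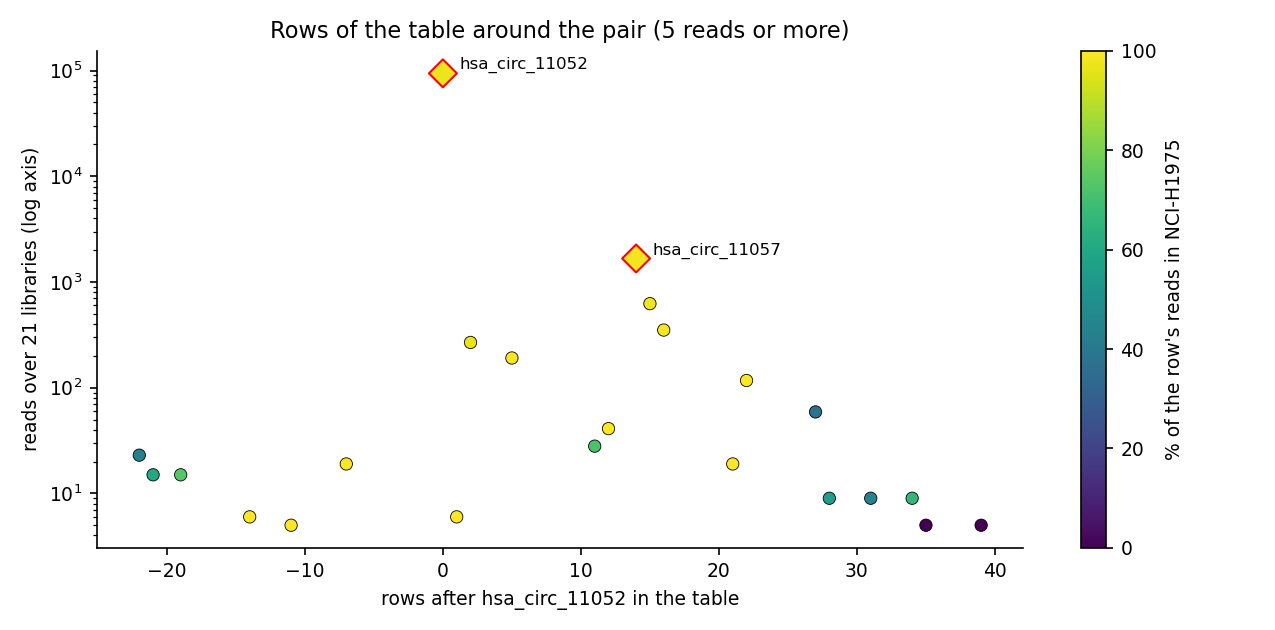
Reads over all 21 libraries (log axis) of rows with 5 reads or more around hsa_circ_11052, against their distance from it in rows of the table, coloured by the percentage of the row's reads in NCI-H1975; diamonds are hsa_circ_11052 and hsa_circ_11057. Rows between and just after the pair are mostly above 90% in NCI-H1975, as are hsa_circ_11052 (96.9%) and hsa_circ_11057 (98.3%).

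The circRNAs with the pattern most like the pair were sought among the 958 others with a mean of at least 20 reads, by the Pearson correlation of log2 CPM over the 21 libraries. For both members the first was hsa_circ_6671, with r = 0.97 to each. It had 4269 reads, all in NCI-H1975, and lies 17067 rows from hsa_circ_11052. The second was hsa_circ_11058 for hsa_circ_11052 (r = 0.96) and hsa_circ_7540 for hsa_circ_11057 (r = 0.96). The members had r = 0.95 to each other, place 5 in the list of hsa_circ_11052 and place 4 in that of hsa_circ_11057. An r over 0.9 was reached by 22 circRNAs for the first and 16 for the second. The libraries fall into those of NCI-H1975 and the others, so that these values mostly describe that split.

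hsa_circ_6671 shared the low level in pCMV6 cells but differed from hsa_circ_11052 in osimertinib-resistant cells. It stood at 5173 ± 291 CPM in NCI-H1975, 5482 ± 522 in FASN, 1758 ± 327 in pCMV6 and 2085 ± 458 in osimertinib-resistant cells (SD, n = 3), and had no read in NL20 or PC-9. Its osimertinib-resistant libraries, at 1744 to 2606 CPM, were all below its NCI-H1975 libraries, at 4984 to 5509 CPM, as those of hsa_circ_11057 were and those of hsa_circ_11052 were not. hsa_circ_7540 showed neither difference clearly. Its pCMV6 libraries, at 273 to 441 CPM, overlapped its NCI-H1975 libraries, at 339 to 653 CPM. Its mean was 477 ± 226 CPM in osimertinib-resistant cells and 492 ± 157 in NCI-H1975 (SD, n = 3).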

How the data were processed

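Circular RNA of 21 libraries was measured by sequencing. Per the labels' protocols, a sequencing provider purified the circular RNA from total RNA and made the libraries. The authors deposited raw read counts per circRNA. The submitters' processing notes name hg38, HISAT2 and DESeq2 without versions or roles. The sources used here do not give the circRNA caller or its filters. Columns were matched to samples by the code in their titles.

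Tests used edgeR 4.0.16 in R 4.3.3. filterByExpr (minimum count 5, minimum total 15) kept 9175 of 124082 circRNAs (7.39%), holding 73.6% to 79.3% of a library's reads. TMM factors and 1 robust quasi-likelihood model of 7 group means were used, with Benjamini-Hochberg adjustment over all circRNAs tested and a threshold of 0.05. log2 CPM used a prior count of 2 and the log2 ratio of the pair added 0.5 to each count. Ratios were compared by two-sided permutation tests (scipy 1.17.1 for exact 95% Clopper-Pearson intervals). The edgeR code was tested on simulated data.

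Alternatives were DESeq2 1.42.0, no scaling factors, scaling without the pair, a minimum count of 10, no filter, the compared groups alone, a replicate block, other pseudocounts and each library left out. In edgeR fits with a library left out the filter and scaling were redone, and the smallest group, which the filter uses, had fewer libraries. Named circRNAs are the pair, the rows near it, and for each member the 2 most like it by correlation over the libraries. hsa_circ_11059, hsa_circ_11054, hsa_circ_11055, hsa_circ_11061 and hsa_circ_11062 were named after their values were seen. The pair and these choices were made with earlier results of these data known.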

Additional observations from a re-analysis of the deposited data

Results flagged for a closer look

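The resistance change of hsa_circ_11052 differed between the lines by a direct test. Its log2 change was 0.52 in osimertinib-resistant NCI-H1975 and -0.03 in gefitinib-resistant PC-9, a difference of 0.55 ± 0.13 SE (edgeR adjusted p = 0.0053). The call was lost without osimertinib-resistant replicate 2 (0.35, edgeR adjusted p = 0.256), PC-9 replicate 2 (0.38, 0.236) or gefitinib-resistant replicate 1 (0.42, 0.124). It was also lost without the filter on low counts (0.47, edgeR adjusted p = 1.00) and with DESeq2 (0.63, adjusted p = 0.126). The fits with a library left out also redid the filter and the scaling. The drugs differ between the lines, so line and drug cannot be told apart. All 3 osimertinib-resistant libraries were above all NCI-H1975 libraries, and the PC-9 groups overlapped.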

How the results depend on the processing

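Under the alternatives the lower levels of both circRNAs in pCMV6 cells and the higher level of hsa_circ_11052 in FASN than in pCMV6 cells kept their direction and their call. Without the filter on low counts the log2 change of hsa_circ_11052 in osimertinib-resistant cells was 0.41 (edgeR adjusted p = 0.463), that of hsa_circ_11057 between FASN and pCMV6 cells 1.20 (0.249) and the difference of the resistance changes of hsa_circ_11052 0.47 (1.00), all no longer called. In a fit of the compared groups alone the first was 0.54 (0.119), and with DESeq2 the last was 0.63 (0.126), also not called. The cause was not tested.

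For hsa_circ_11052 between FASN and NCI-H1975 cells the sign turned without scaling factors (0.0153), with the pair removed before scaling (0.0178), with a minimum count of 10 (0.0163), in the compared groups alone (0.0116) and with DESeq2 (0.00159). Between gefitinib-resistant and other PC-9 cells it turned in the compared groups alone (0.00643).

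With each library left out in turn, the log2 change of hsa_circ_11052 ran from 0.31 to 0.64 in osimertinib-resistant cells, from -1.25 to -1.13 in pCMV6 cells, from 1.12 to 1.20 for FASN against pCMV6, from -0.0431 to 0.0408 for FASN against NCI-H1975, from -0.18 to 0.0765 for gefitinib-resistant cells and from 0.35 to 0.69 for the difference of the resistance changes. For hsa_circ_11057 it ran from -0.73 to -0.54, from -1.58 to -1.41, from 1.03 to 1.39, from -0.42 to -0.03, from -5.18 to -1.26 and from 0.63 to 4.54 in that order. The far values -5.18 and 4.54 are those without gefitinib-resistant replicate 3, which left no read in that group, and are no bounds. The log2 ratio of the pair ran from 0.96 to 1.35 for osimertinib-resistant cells and from -0.28 to 0.20 for FASN against pCMV6. The correlation of the deviations ran from -0.27 to 0.0262.

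Replicate numbers did not pair the libraries: deviations of libraries with the same number had a median correlation of -0.0076 over 63 pairs. With the replicate block the log2 change of hsa_circ_11052 in osimertinib-resistant cells was 0.50 (edgeR adjusted p = 4.68e-06) and that of hsa_circ_11057 in pCMV6 cells -1.40. The block changed no call, and the correlation of the deviations became 0.14. Without the 2 libraries with the farthest deviations of hsa_circ_11052, a setting chosen after seeing the data, that correlation was 0.0308.

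In the comparisons listed here, counts of circRNAs called over the whole table were lower without the filter and with any 1 library left out. Leaving a library out also shrank a group and redid the filter and scaling, and its own part was not tested. The number of circRNAs tested differed between the settings, so the counts are no shares. Without the filter they fell from 231 to 53 in osimertinib-resistant cells, from 33 to 12 for pCMV6, from 29 to 8 for FASN against pCMV6, from 124 to 16 in gefitinib-resistant cells and from 162 to 21 for the difference of the resistance changes. Without 1 library, in that order, they ran from 115 to 176, 9 to 21, 14 to 20, 48 to 72 and 79 to 141. For gefitinib-resistant cells DESeq2 called 199 and the compared groups alone 233. The test of hsa_circ_11057 in the compared groups alone was not run there, as it failed the filter. The 5 ratio tests between 2 groups cannot give a p under 0.1, or under 0.25 in pairs.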
